A study of Ovis aries with 6 samples.

Results

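A list of 38 genes covers sphingolipid and ceramide metabolism, namely the enzymes that make, modify and break down ceramide, the regulators of its first step and receptors of sphingosine-1-phosphate (S1P). Genes were taken by name from a table of 24390 genes measured by RNA sequencing in the fat that surrounds the kidney of sheep (perirenal adipose tissue), and 36 of the 38 were found. CERS5 and ASAH2 were not listed by name. The tissue came from 3 lambs and 3 fetuses, each library from a separate animal. All animals were wild-type, pure-bred Merino sheep that received no treatment per the labels. The lambs are given as 80 days after birth, as 89 days old and as 12 weeks old, and their sample titles include VEH (meaning not given in the sources used here). No fetal title has these letters, so whatever they stand for cannot be told apart from stage. They were reared with their mothers until weaning. The fetuses were 132 days past conception, where term is 150 days, and came from ewes kept in pens. The question is which transcripts change while this depot turns from brown to white fat.

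Sphingolipids are membrane lipids built on a long-chain base. Serine palmitoyltransferase joins serine to palmitoyl-CoA in the endoplasmic reticulum, and ORMDL proteins hold this step back when ceramide is plentiful. Ceramide synthases then attach a fatty acid, a desaturase turns dihydroceramide into ceramide, and ceramide goes on to sphingomyelin, glucosylceramide or ceramide-1-phosphate. Ceramidases release sphingosine, sphingosine kinases phosphorylate it to S1P, and S1P either acts on G protein-coupled receptors or is cleaved irreversibly by a lyase. In adipose tissue of mice and humans ceramides are studied for their links to insulin action and to heat production.

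Of the 36 genes, 32 had enough counts to be tested and 18 passed the test between lambs and fetuses at an adjusted p below 0.05, which is 56.2%, against 44.7% of all 13624 genes tested. There were 12 higher in lambs, or 37.5% of those tested, and 6 lower, or 18.8%. Over all genes tested, 22.0% were higher and 22.7% lower. Among the 12, 8 rose by more than 2-fold, and among the 6, 1 fell by more than 2-fold; 10.0% and 12.9% of all genes did so. The remaining 14 did not pass. The median log2 difference, lamb minus fetal, was 0.15 for the 32 genes and -0.01 for all genes tested. Libraries of the stages did not overlap for 14 genes that were above and 7 that were below in lambs, and for 28.2% and 29.5% of all genes. DEGS1, ORMDL3, ACER2, SGPL1 and ACER3 had the highest log2 differences of the list, and SMPD3 the lowest. DEGS1 was called from a row whose identity is uncertain, as described with the ceramide synthases.

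**Figure D1:**
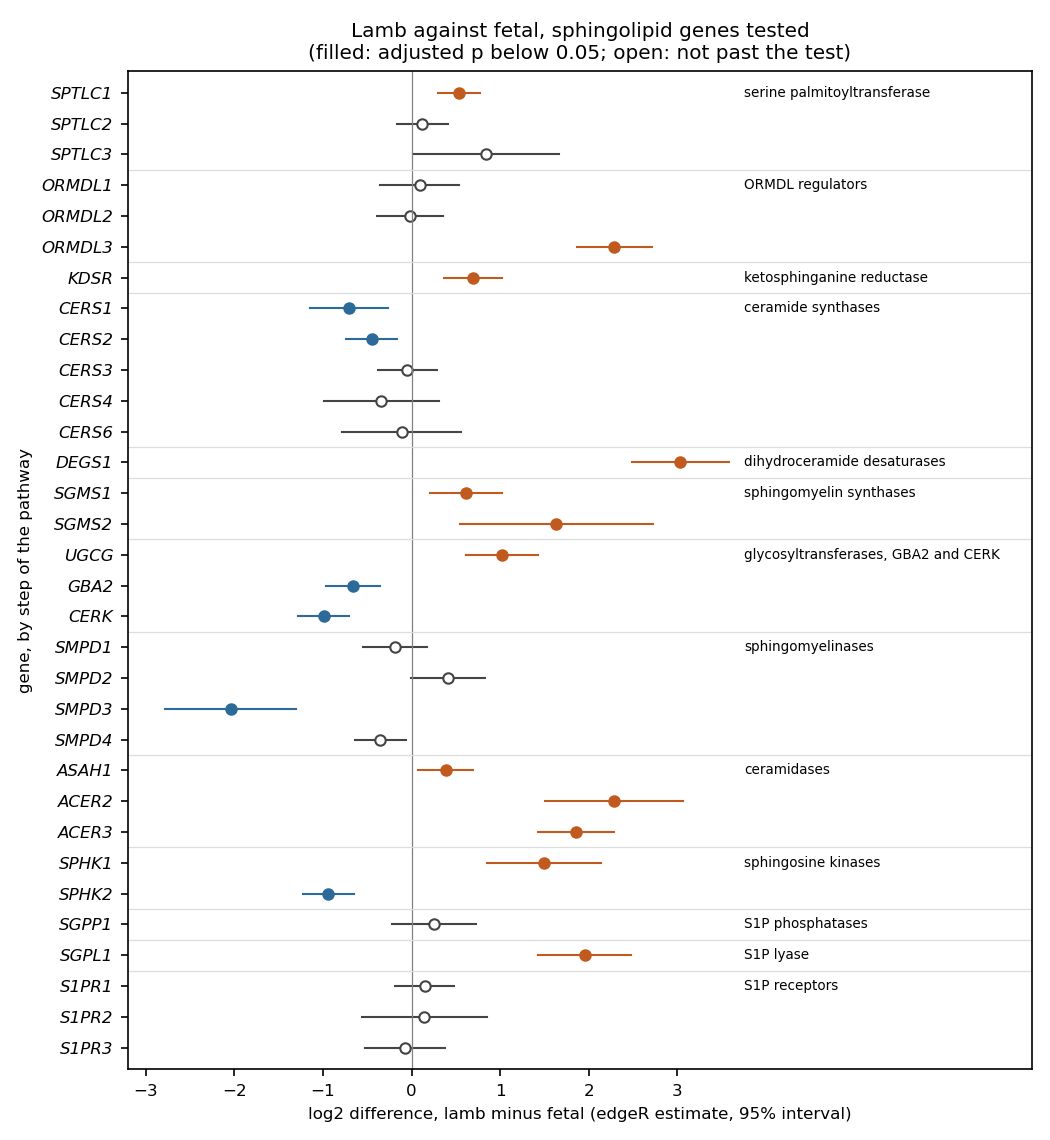
Log2 difference (lamb minus fetal) of the 32 tested genes, on the horizontal axis, by step of the pathway; points are edgeR estimates, bars 95% intervals, and filled points passed the test. DEGS1 lies furthest right at 3.03 and SMPD3 furthest left at -2.04, and the intervals of the 3 S1P receptor genes include 0.

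Values are CPM, which are counts brought to a common library size with TMM factors; these offset the pull of very abundant genes. The lamb libraries held between 15907128 and 17263780 counts and the fetal libraries between 17535892 and 19150428. Genes of the mitochondrial genome took 7.37 to 8.29% of the counts in lambs and 27.5 to 40.7% in fetuses, and TMM factors were 1.16 to 1.21 in lambs and 0.723 to 0.956 in fetuses. With scaling by library totals alone, the median log2 difference of all genes was higher by 0.47, so the sign of a small difference rests on the scaling. Adipocyte markers (ADIPOQ, PLIN1, CIDEC, FABP4 and PNPLA2 of 6 listed, LIPE not being listed by name) summed to 25400 to 35600 CPM in lambs and 12600 to 15800 CPM in fetuses, with 4 of the 5 higher in lambs. In whole tissue, fewer cells of a type and less RNA per cell cannot be told apart.

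At the first step, 1 of 3 genes for serine palmitoyltransferase subunits rose in lambs, and so did 1 of 3 genes for its ORMDL regulators. SPTLC1, the subunit common to the enzyme's forms (ENSOARG00000007870, chromosome 2, 26931597 to 26996794 on Oar v3.1), had 93.7, 84.5 and 86.1 CPM in lambs, against 61.9, 59.1 and 61.2 CPM in fetuses. Its stages did not overlap, and it rose 1.45-fold (log2 difference 0.54 ± 0.10, adjusted p = 0.00461). SPTLC2, the main catalytic partner, had 31.2, 34.2 and 38.6 CPM in lambs, against 33.3, 29.1 and 33.2 CPM in fetuses, with overlap between the stages. The log2 difference of SPTLC2 did not pass (0.12 ± 0.12, 95% interval -0.16 to 0.41, adjusted p = 0.445). SPTLC3, a catalytic subunit that also makes shorter bases, had 2.12, 3.27 and 5.20 CPM in lambs, against 2.03, 1.91 and 1.97 CPM in fetuses, with lamb 3 far above lamb 1 and no overlap. SPTLC3 did not pass (0.84 ± 0.35, adjusted p = 0.0893); without lamb 1 it did, at 1.10 (adjusted p = 0.0278), and with library totals at 1.30 (0.0161).

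ORMDL3 (ENSOARG00000012331, chromosome 11, 39833578 to 39835372) had a higher mean RPKM than any other gene of the list at both stages, in the authors' deposited table. Its values were 679.6, 587 and 674 CPM in lambs, against 155, 104 and 138 CPM in fetuses. All 3 lambs lay far above all 3 fetuses, with a 4.88-fold increase (log2 difference 2.29 ± 0.18, adjusted p = 0.000121), and 2.48% of all genes tested rose more. ORMDL1, a close relative, had 5.98, 7.21 and 7.40 CPM in lambs, against 7.53, 6.11 and 5.67 CPM in fetuses. ORMDL2, the third relative, had 11.0, 8.51 and 9.35 CPM in lambs, against 9.15, 10.6 and 9.49 CPM in fetuses. Both overlapped between the stages and did not pass, with 95% intervals of the log2 difference of -0.35 to 0.54 for ORMDL1 and -0.39 to 0.35 for ORMDL2. Of the counts of the 3 ORMDL genes within a library, ORMDL3 held 97.6, 97.4 and 97.6% in lambs, against 90.3, 86.2 and 90.1% in fetuses. The ratio of ORMDL3 to SPTLC1 counts, which does not depend on library scaling, was 7.25, 6.94 and 7.83 in lambs, against 2.51, 1.76 and 2.26 in fetuses. KDSR, the reductase of the second step, had 103, 113 and 139.8 CPM in lambs, against 72.3, 71.8 and 76.6 CPM in fetuses. It rose 1.61-fold without overlap (log2 difference 0.69 ± 0.14, adjusted p = 0.00576), with the highest value in lamb 3.

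None of the 5 ceramide synthase genes found rose, and 2 of them fell. These enzymes differ in the length of the fatty acid they attach: CERS2 favours very long chains and CERS6 and CERS5 palmitoyl chains. CERS2 (ENSOARG00000020883, chromosome 1, 99829215 to 99832274) had 98.96, 107 and 122.2 CPM in lambs, against 142, 158 and 149 CPM in fetuses. It fell to 109 ± 11.8 CPM in lambs, against 149.5 ± 7.69 CPM in fetuses (SD, n = 3 each), a log2 difference of -0.45 ± 0.12 (adjusted p = 0.0210 from edgeR). That call depended on the scaling: with library totals CERS2 was at 0.026. It was also lost without lamb 1, lamb 2, fetus 2 or fetus 3, with adjusted p between 0.0555 and 0.0635.

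CERS1, the synthase of stearoyl ceramides best known from muscle and brain, had 5.73, 4.10 and 5.25 CPM in lambs, against 7.77, 8.75 and 8.12 CPM in fetuses. Its log2 difference was -0.71 ± 0.19 (adjusted p = 0.0184), but -0.23 with library totals (adjusted p = 0.444), and the call was lost without fetus 2 (adjusted p = 0.0605) or fetus 3 (0.0504). CERS1 shares 2692 bases with GDF1, and since the use of strand in counting is not stated, reads from either gene may count for both. GDF1 itself did not pass (log2 difference -0.41 ± 0.34, adjusted p = 0.358). Markers of skeletal muscle, of which 4 of 6 were listed by name and MYLPF and MYH1 were at 0 in some libraries, summed to 6.97 to 10.5 CPM in lambs and 18.9 to 116 CPM in fetuses, with 1 lower of 2 tested; their part in the CERS1 result was not tested. CERS3, known from skin, had 10.8, 10.2 and 11.6 CPM in lambs, against 11.7, 12.1 and 9.97 CPM in fetuses. CERS4 had 5.78, 6.75 and 4.65 CPM in lambs, against 7.77, 4.71 and 9.19 CPM in fetuses. CERS6 had 2.77, 4.41 and 4.55 CPM in lambs, against 5.44, 3.46 and 3.76 CPM in fetuses. All 3 overlapped between the stages, and their adjusted p-values lay between 0.350 and 0.798.

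The desaturase gene DEGS1, whose enzyme sets the double bond that makes ceramide out of dihydroceramide, had 67.0, 89.4 and 56.1 CPM in lambs, against 10.8, 6.84 and 8.18 CPM in fetuses. All lambs lay above all fetuses, an 8.19-fold increase (log2 difference 3.03 ± 0.23, adjusted p = 0.000116). This row (ENSOARG00000015832) lies at chromosome 3, 49440109 to 49441080 and spans only 972 bases. In the RefSeq gene table of assembly ARS-UI_Ramb_v3.0, DEGS1 lies elsewhere, between FBXO28 and NVL. In the deposited table an unnamed gene, ENSOARG00000015855 (chromosome 12, 25467996 to 25473652), stands between the same pair. It had 295, 357 and 258 CPM in lambs, against 39.3, 33.2 and 36.6 CPM in fetuses, and rose 8.32-fold (log2 difference 3.06 ± 0.17, adjusted p = 4.20e-05). The count ratio of the row named DEGS1 to the unnamed gene was 0.227, 0.250 and 0.218 in lambs, against 0.275, 0.206 and 0.223 in fetuses, with overlap between the stages. Whether reads of one place were also counted at the other was not tested, so the value of DEGS1 is uncertain, while both rows rose.

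Unnamed genes also stood where the RefSeq table has the genes that were not listed by name. ENSOARG00000017904 (chromosome 3, 135992959 to 136011529) stood between LIMA1 and GPD1 like CERS5 there. COX14 lay between this unnamed gene and GPD1 in the deposited data, whereas GPD1 directly followed CERS5 among RefSeq's named genes. The unnamed gene had 23.6, 25.9 and 25.5 CPM in lambs, against 18.3, 20.5 and 20.2 CPM in fetuses (log2 difference 0.35 ± 0.11, adjusted p = 0.0377 from edgeR). ENSOARG00000013806 (chromosome 22, 8375176 to 8448595), between A1CF and SGMS1 like the neutral ceramidase gene ASAH2 there, had 2.57, 1.45 and 0.700 CPM in lambs, against 0.120, 0.294 and 0.119 CPM in fetuses without overlap (log2 difference 3.15 ± 0.66, adjusted p = 0.00659). Place alone links these rows to the names, so they are not counted in the list. DEGS2, which makes phytoceramides in skin, kidney and gut, had too few counts for the test, with 1, 3 and 1 counts in lambs, against 29, 7 and 10 in fetuses. Scaled to library sizes with TMM factors this was 11.6-fold lower in lambs (95% interval 4.64 to 37.5, for counting error only). Without a filter DEGS2 passed (adjusted p = 0.00983 from edgeR). All 8 listed markers of epithelium fell, to a sum of 0.500 to 0.778 CPM in lambs, against 51.3 to 183 CPM in fetuses, with 6 of the 8 at 0 in some lambs and fetus 1 highest in both DEGS2 and the markers; their part in the DEGS2 result was not tested.

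Among genes for enzymes that use ceramide, both sphingomyelin synthase genes and the glucosylceramide synthase gene rose, while the gene for the ceramide kinase fell. GBA2, whose enzyme releases ceramide from glucosylceramide, also fell. UGCG, which adds glucose to ceramide as the start of most glycosphingolipids (ENSOARG00000006584, chromosome 2, 11562561 to 11599139), had 20.1, 27.1 and 25.6 CPM in lambs, against 14.1, 11.7 and 10.2 CPM in fetuses. Its stages did not overlap, and it rose 2.03-fold (log2 difference 1.02 ± 0.17, adjusted p = 0.00274). SGMS1, the sphingomyelin synthase of the Golgi, had 32.0, 25.9 and 41.0 CPM in lambs, against 20.0, 22.4 and 22.2 CPM in fetuses, with the lowest lamb just above the highest fetus. SGMS1 rose 1.53-fold (log2 difference 0.61 ± 0.17, adjusted p = 0.0239), a call lost without lamb 3 (adjusted p = 0.0516) or any 1 fetus (0.0550 to 0.0824). SGMS2, the form at the plasma membrane, was scarce, with 40, 64 and 50 counts in lambs, against 23, 5 and 12 in fetuses. Its log2 difference was 1.63 ± 0.47 (adjusted p = 0.0237), and the call was lost without lamb 2 (0.0728), fetus 2 (0.0605) or fetus 3 (0.0747); it stood at 2.22 without fetus 1.

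CERK, which phosphorylates ceramide to ceramide-1-phosphate (ENSOARG00000019563, chromosome 3, 221089606 to 221106314), had 12.1, 12.2 and 13.3 CPM in lambs, against 22.5, 25.3 and 26.9 CPM in fetuses. All lambs were below all fetuses, and CERK fell by 0.99 ± 0.12 on the log2 scale (adjusted p = 0.000697). GBA2, a glucosylceramidase outside the lysosome, had 47.0, 49.9 and 53.5 CPM in lambs, against 73.6, 91.8 and 73.0 CPM in fetuses. GBA2 fell by 0.66 ± 0.13 on the log2 scale (adjusted p = 0.00499), but was at -0.17 with library totals (adjusted p = 0.357). UGT8, which makes galactosylceramide in myelinating cells, was not tested, with 8, 5 and 4 counts in lambs, against 19, 3 and 6 in fetuses, where fetus 1 stood apart. Schwann cell and myelin markers, all 8 found by name, summed to 139 to 196 CPM in lambs and 59.7 to 84.2 CPM in fetuses, with 1 higher of 6 tested and NCMAP and PMP2 at 0 in some libraries; their part in the UGT8 values was not tested.

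Of the 4 sphingomyelinase genes, which encode enzymes that release ceramide from sphingomyelin, 1 fell and 3 did not pass. SMPD3, the neutral sphingomyelinase linked to the Golgi and to vesicle release (ENSOARG00000003422, chromosome 14, 35060804 to 35070157), had 19.5, 13.7 and 26.2 CPM in lambs, against 53.9, 78.6 and 112 CPM in fetuses. Every lamb was below every fetus, although the fetuses differed among themselves by 2.08-fold. SMPD3 fell by 2.04 ± 0.32 on the log2 scale (adjusted p = 0.00182). Of the counts of the 4 genes, it held 27.8, 22.7 and 32.4% in lambs, against 46.1, 59.3 and 67.1% in fetuses. SMPD1, the acid sphingomyelinase of lysosomes, had 16.4, 14.0 and 19.8 CPM in lambs, against 20.5, 18.0 and 18.7 CPM in fetuses and overlapped between the stages. SMPD2, another neutral form, had 8.25, 10.6 and 10.4 CPM in lambs, against 8.13, 7.65 and 6.27 CPM in fetuses, the lowest lamb just above the highest fetus. SMPD4 had 25.9, 22.1 and 24.5 CPM in lambs, against 34.4, 28.3 and 29.9 CPM in fetuses, the lambs below the fetuses. These 3 did not pass, with 95% intervals of -0.55 to 0.17 for SMPD1, -0.01 to 0.83 for SMPD2 and -0.64 to -0.06 for SMPD4 (adjusted p = 0.350, 0.102 and 0.0509 from edgeR). SMPD1 shares 1954 bases with APBB1, which had about as many counts, and SMPD2 shares 322 bases with PPIL6.

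All 3 tested ceramidase genes rose, the alkaline forms most. ACER3, an alkaline ceramidase of the endoplasmic reticulum and Golgi (ENSOARG00000013240, chromosome 15, 54380118 to 54544096), had 88.3, 75.0 and 56.3 CPM in lambs, against 18.4, 19.3 and 23.1 CPM in fetuses. ACER2, the alkaline ceramidase of the Golgi (ENSOARG00000014252, chromosome 2, 87337974 to 87355861), had 30.9, 22.1 and 12.9 CPM in lambs, against 5.50, 4.49 and 3.52 CPM in fetuses. In both genes all lambs exceeded all fetuses, with lamb 1 highest and lamb 3 lowest. ACER3 rose 3.62-fold (log2 difference 1.85 ± 0.19, adjusted p = 0.000278) and ACER2 rose 4.87-fold (log2 difference 2.28 ± 0.34, adjusted p = 0.00139). ASAH1, the acid ceramidase of lysosomes, had 54.5, 40.2 and 47.0 CPM in lambs, against 35.8, 34.6 and 38.0 CPM in fetuses. It rose 1.31-fold (log2 difference 0.39 ± 0.13, adjusted p = 0.0472), a call near the threshold that was lost without any 1 library other than lamb 2 (adjusted p between 0.0842 and 0.131) and without a filter on low counts (0.0549). ACER1, known from epidermis, had 3, 0 and 11 counts in lambs, against 1, 0 and 0 in fetuses, and was not tested. Scaled to library sizes with TMM factors this was 11.1-fold higher in lambs (95% interval 1.68 to 468, for counting error only), and most of it was in lamb 3.

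The make-up of ceramidase counts within a library differed with stage. ACER3 made up 50.8, 54.6 and 48.2% in lambs, against 30.7, 33.0 and 35.8% in fetuses. ASAH1 made up 31.3, 29.3 and 40.2% in lambs, against 60.0, 59.3 and 58.8% in fetuses. The share of ACER3 was higher in every lamb than in every fetus, and that of ASAH1 lower. The ratio of ACER3 to ASAH1 counts was 1.62, 1.87 and 1.20 in lambs, against 0.513, 0.557 and 0.608 in fetuses. Shares and ratios of counts also hold each gene's length, so they are compared here between stages and not between genes. By the authors' deposited stage means of RPKM, which are scaled to gene length, ACER3 was above ASAH1 at both stages. ACER3 was at 161 in lambs and 43.2 in fetuses, and ASAH1 at 15.7 in lambs and 9.79 in fetuses. The lengths behind these means were not checked, and for some genes of the list the means did not follow the counts, so this order is uncertain.

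The sphingosine kinase genes moved in opposite directions. SPHK1, the kinase of the cytosol and plasma membrane (ENSOARG00000007374, chromosome 11, 54357681 to 54359873), had 8.84, 11.7 and 8.10 CPM in lambs, against 4.005, 3.97 and 2.21 CPM in fetuses. SPHK2, found in nuclei and mitochondria (ENSOARG00000011960, chromosome 14, 54310017 to 54317139), had 20.4, 16.7 and 18.5 CPM in lambs, against 37.8, 32.5 and 36.4 CPM in fetuses. Neither gene overlapped between the stages. SPHK1 rose 2.81-fold (log2 difference 1.49 ± 0.28, adjusted p = 0.00403), and SPHK2 fell by 0.94 ± 0.12 on the log2 scale (adjusted p = 0.000875). With library totals SPHK2 was at -0.48 and did not pass (adjusted p = 0.0594). The share of SPHK1 in the counts of both genes, which is free of library scaling, was 30.3, 41.1 and 30.4% in lambs, against 9.57, 10.9 and 5.72% in fetuses.

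S1P is removed by reversible dephosphorylation or by the lyase, the only exit from sphingolipid metabolism. SGPL1, the lyase gene (ENSOARG00000006286, chromosome 25, 26793265 to 26845326), had 31.6, 43.1 and 59.5 CPM in lambs, against 11.5, 11.8 and 11.2 CPM in fetuses. The fetuses were nearly equal and all lambs lay above them, with lamb 3 highest. SGPL1 rose 3.88-fold (log2 difference 1.96 ± 0.23, adjusted p = 0.000505). SGPP1, an S1P phosphatase, had 7.96, 6.02 and 8.25 CPM in lambs, against 5.80, 5.52 and 7.34 CPM in fetuses, with overlap, and did not pass (95% interval -0.23 to 0.73, adjusted p = 0.351). SGPP2, the second phosphatase, had 0, 2 and 0 counts in lambs, against 13, 3 and 1 in fetuses, and was not tested. Scaled to library sizes with TMM factors, its ratio of lambs to fetuses was 0.0931 (95% interval 0.0104 to 0.392, for counting error only). The ratio of SGPL1 to SGPP1 counts was 3.97, 7.16 and 7.21 in lambs, against 1.99, 2.15 and 1.53 in fetuses. The ratio of SGPL1 to SPHK1 counts was 3.57, 3.69 and 7.35 in lambs, against 2.88, 2.98 and 5.08 in fetuses. The SGPL1 to SGPP1 ratios of the stages did not overlap, and the SGPL1 to SPHK1 ratios did. With 3 against 3 the two-sided exact permutation test cannot go below p = 0.1, which it gave for the first ratio; it gave p = 0.5 for the second.

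No S1P receptor gene passed the test. S1PR1, the main receptor of endothelial cells and lymphocytes (ENSOARG00000010691, chromosome 1, 77748845 to 77749996), had 45.5, 61.3 and 55.9 CPM in lambs, against 43.3, 51.9 and 51.5 CPM in fetuses. S1PR2, a receptor found in many tissues, had 6.52, 5.66 and 9.40 CPM in lambs, against 7.05, 4.12 and 8.30 CPM in fetuses. S1PR3, another such receptor, had 3.95, 4.31 and 3.55 CPM in lambs, against 4.18, 4.05 and 4.18 CPM in fetuses. All 3 overlapped between the stages. The 95% intervals of the log2 difference were -0.18 to 0.48 for S1PR1, -0.56 to 0.85 for S1PR2 and -0.53 to 0.38 for S1PR3 (adjusted p = 0.426, 0.726 and 0.787 from edgeR). S1PR1 did pass with library totals, at 0.63 (adjusted p = 0.0181), the scaling that shifted the median of all genes. Endothelial markers, 7 of 8 found by name, summed to 1470 to 1590 CPM in lambs and 1450 to 1830 CPM in fetuses, with 2 higher and 3 lower of 7 tested; their part in the receptor values was not tested.

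**Figure D2:**
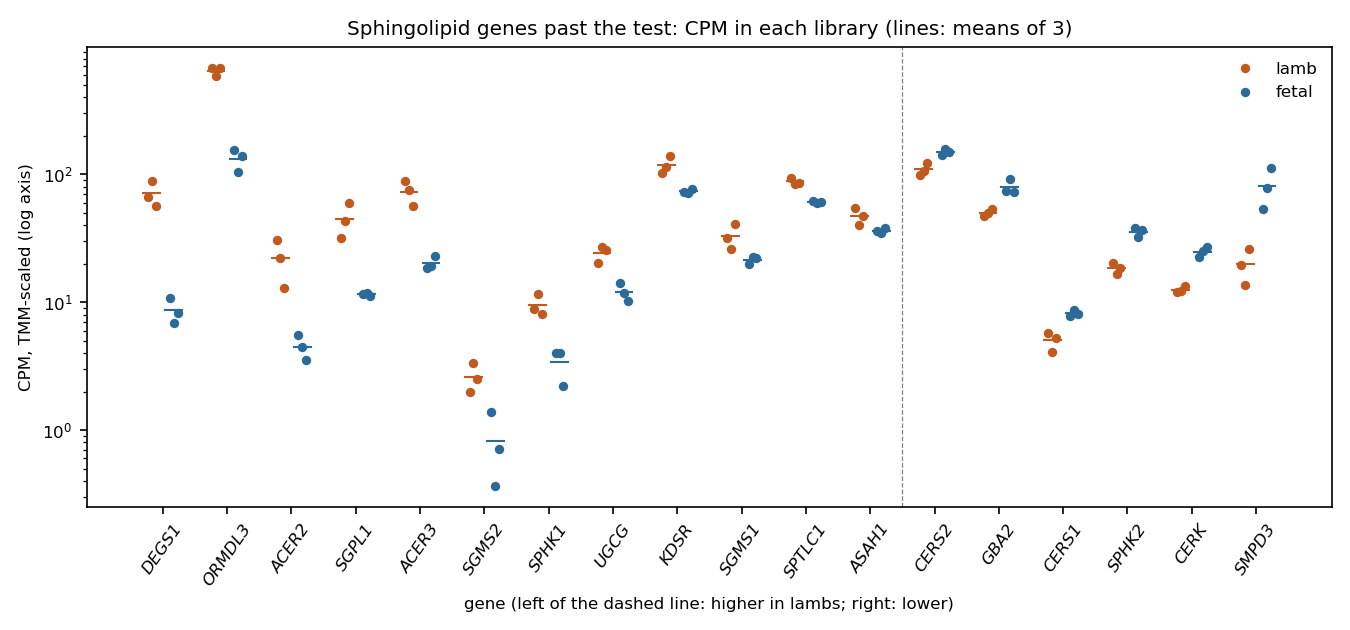
CPM on a log axis for the 18 genes that passed the test, 1 point per library and a line at the mean of 3, lambs left and fetuses right of each gene's tick. No gene overlaps between the stages, ORMDL3 lies highest at 587 to 679.6 CPM in lambs, and CERS2, GBA2, CERS1, SPHK2, CERK and SMPD3 are the genes lower in lambs.

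Shares within gene families put these changes on a scale free of library size. ORMDL3 averaged 97.5% ± 0.103 in lambs and 88.9% ± 2.31 in fetuses, SPHK1 33.9% ± 6.23 in lambs and 8.73% ± 2.69 in fetuses and SMPD3 27.6% ± 4.88 in lambs and 57.5% ± 10.6 in fetuses of the counts of their families (SD, n = 3 each). ACER2 averaged 15.0% ± 3.5 in lambs and 7.45% ± 1.89 in fetuses of ceramidase counts, and SPTLC1 69.8% ± 3.78 in lambs and 64.3% ± 1.19 in fetuses of the counts of the SPTLC genes. CERS2 averaged 81.0% ± 1.33 in lambs and 82.8% ± 1.55 in fetuses of the counts of the 5 named ceramide synthase genes. SGMS1 averaged 92.4% ± 3.23 in lambs and 96.3% ± 2.46 in fetuses of the SGMS counts, and S1PR1 82.8% ± 2.76 in lambs and 82.1% ± 3.78 in fetuses of the counts of the receptors. These 3 overlapped between the stages. For CERS2 the overlap holds for that total only, which leaves out the unnamed gene at the place of CERS5. That gene had 478, 500 and 510 counts in lambs, against 306, 279 and 339 in fetuses. A share of CERS2 with it in the total was not computed. Of 10 such shares, the 7 without overlap gave p = 0.1 in a two-sided exact permutation test, the smallest that 3 against 3 allows, and 0.143 after adjustment over the 10. Among the 7, the shares of ACER3, ACER2 and ASAH1 are parts of the same ceramidase total, so they are not separate results. The other shares had p = 0.2 for CERS2, 0.3 for SGMS1 and 0.6 for S1PR1 by the same exact test.

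**Figure D3:**
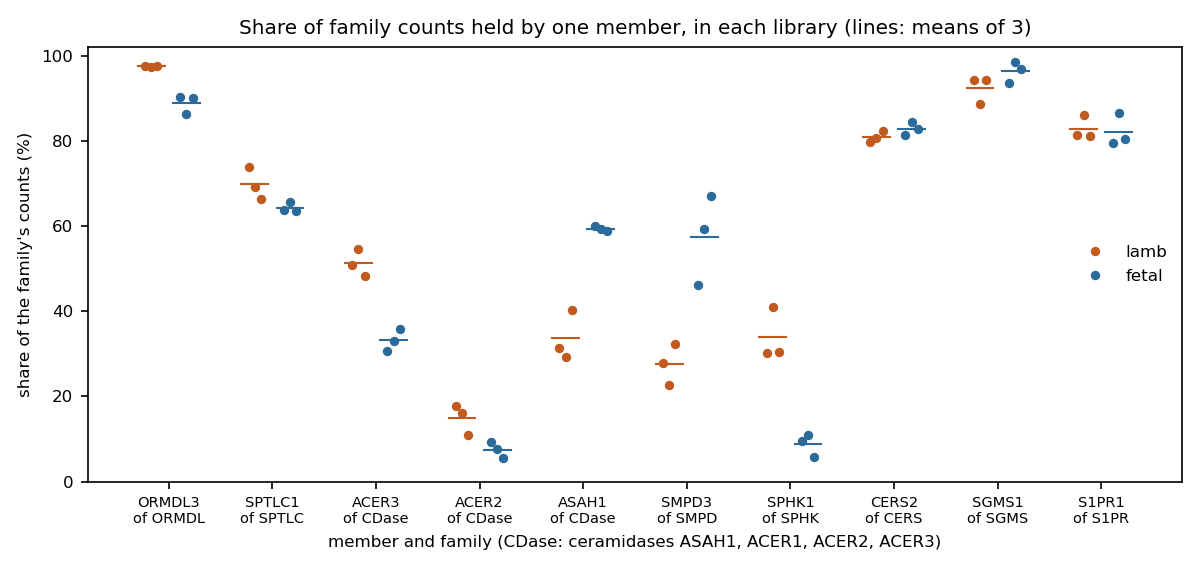
Share of a gene family's counts held by one member (%), 1 point per library and a line at the mean of 3, lambs left and fetuses right of each tick. The share of ACER3 is higher and that of ASAH1 lower in every lamb than in every fetus (shares are not scaled to gene length). SPHK1 lies at 30.3 to 41.1% in lambs and at 5.72 to 10.9% in fetuses. CERS2, SGMS1 and S1PR1 overlap between the stages. The CERS2 share is of the 5 named ceramide synthase genes, without the unnamed gene at the place of CERS5.

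A second list of 49 genes holds further parts of the pathway, such as lysosomal hydrolases, glycosyltransferases, transfer proteins and lipid phosphate phosphatases. Of these, 43 were found and 36 tested. In lambs 9 rose and 5 fell, or 38.9% of those tested, against 44.7% of all genes tested (22.0% higher and 22.7% lower), while 22 did not pass. Their median log2 difference was 0.05. With library totals 17 were higher and 2 lower. B3GALNT1, which extends globotriaosylceramide to globoside, had 236, 99.8 and 123 CPM in lambs, against 30.6, 17.9 and 16.6 CPM in fetuses and rose 7.04-fold (log2 difference 2.82 ± 0.38, adjusted p = 0.00101). The lipid phosphate phosphatase gene PPAP2A, now called PLPP1, rose 2.90-fold (1.53 ± 0.17, adjusted p = 0.000371), and FAM57B, a gene related to ceramide synthases, rose 2.74-fold (1.45 ± 0.45, adjusted p = 0.0333). GLA, the lysosomal alpha-galactosidase that trims globotriaosylceramide, rose 1.76-fold (0.81 ± 0.13, adjusted p = 0.00206). Lower genes were led by B4GALT6, a lactosylceramide synthase, with 1.14, 1.25 and 1.15 CPM in lambs, against 4.005, 3.46 and 3.28 CPM in fetuses (log2 difference -1.60 ± 0.25, adjusted p = 0.00171). NEU3, a sialidase of gangliosides, fell by 1.16 ± 0.28, PLEKHA8, a carrier of glucosylceramide, by 1.15 ± 0.15 and ARSA, the sulfatase of sulfatides, by 0.57 ± 0.13 on the log2 scale.

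The authors' deposited table gives stage means of RPKM, a read count scaled to gene length and library size, which carry no error here. These means did not follow the counts in every gene, so the order of genes by them is uncertain. SGPP2, with 0, 2 and 0 counts in lambs, had a mean RPKM of 18.3 in lambs. That was above SPHK1 at 6.62, with 179, 225 and 162 counts in lambs. ORMDL3 had the highest mean RPKM of the list at both stages, at 831 in lambs and 128 in fetuses. In lambs ACER3 (161), CERS2 (87.3), SPTLC1 (65.2) and DEGS1 (63.0) came next in the authors' deposited table. In fetuses the order of its RPKM means was CERS2 (84.2), ACER3 (43.2), SPTLC1 (34.4) and SMPD3 (33.1). DEGS1 ranked 5 of 36 in lambs and 24 of 36 in fetuses. For SGMS2, UGT8, CERS3, ACER1, SGPP2 and SGPL1, 6 genes in all, the ratio of RPKM means departed from the ratio of counts by over 0.5 on the log2 scale. For SGPL1 the authors' deposited RPKM means gave a log2 ratio of 1.55 and the counts, without TMM, 2.43. The authors' deposited table called 11 of the genes higher in lambs and 5 lower at an adjusted p below 0.05 from edgeR. The share of all its genes so called was not counted here. It did not call ASAH1, CERS1 or CERS2, and it called DEGS2 lower (fold score -10.4, adjusted p = 0.000304 from edgeR).

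Markers of further cell types were summed in the same way. Of 8 macrophage markers 7 were found by name and 6 tested, with 5 higher and 0 lower in lambs; they summed to 1160 to 1430 CPM in lambs and 131 to 260 CPM in fetuses, with MARCO at 0 in some libraries. T and NK cell markers, all 5 found, summed to 4.15 to 17.4 CPM in lambs and 3.46 to 5.80 CPM in fetuses, with overlap between the stages and 1 higher of 3 tested. Brown adipocyte markers, all 6 found, summed to 526 to 672 CPM in lambs and 1520 to 2590 CPM in fetuses, with 4 lower and 0 higher. Smooth muscle and pericyte markers, 7 of 8 found, summed to 490.0, 1300.0 and 592 CPM in lambs, against 786, 633 and 534 in fetuses. Of these markers 1 was higher and 1 lower. Lamb 2 stood apart, with MYH11 at 588.9 CPM, against 85.7 CPM in lamb 1 and 112.7 CPM in lamb 3. Kidney markers, all 4 found and 1 tested, summed to 0.550 to 1.09 CPM in lambs and 0.658 to 2.35 CPM in fetuses, with AQP2 at 0 throughout. Adrenal markers, 4 of 5 found and 3 tested, summed to 37.6 to 47.9 CPM in lambs and 23.8 to 35.2 CPM in fetuses, with DBH at 0 throughout. None of the kidney or adrenal markers tested passed. The part of these cell types in the sphingolipid results was not tested.

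**Figure D4:**
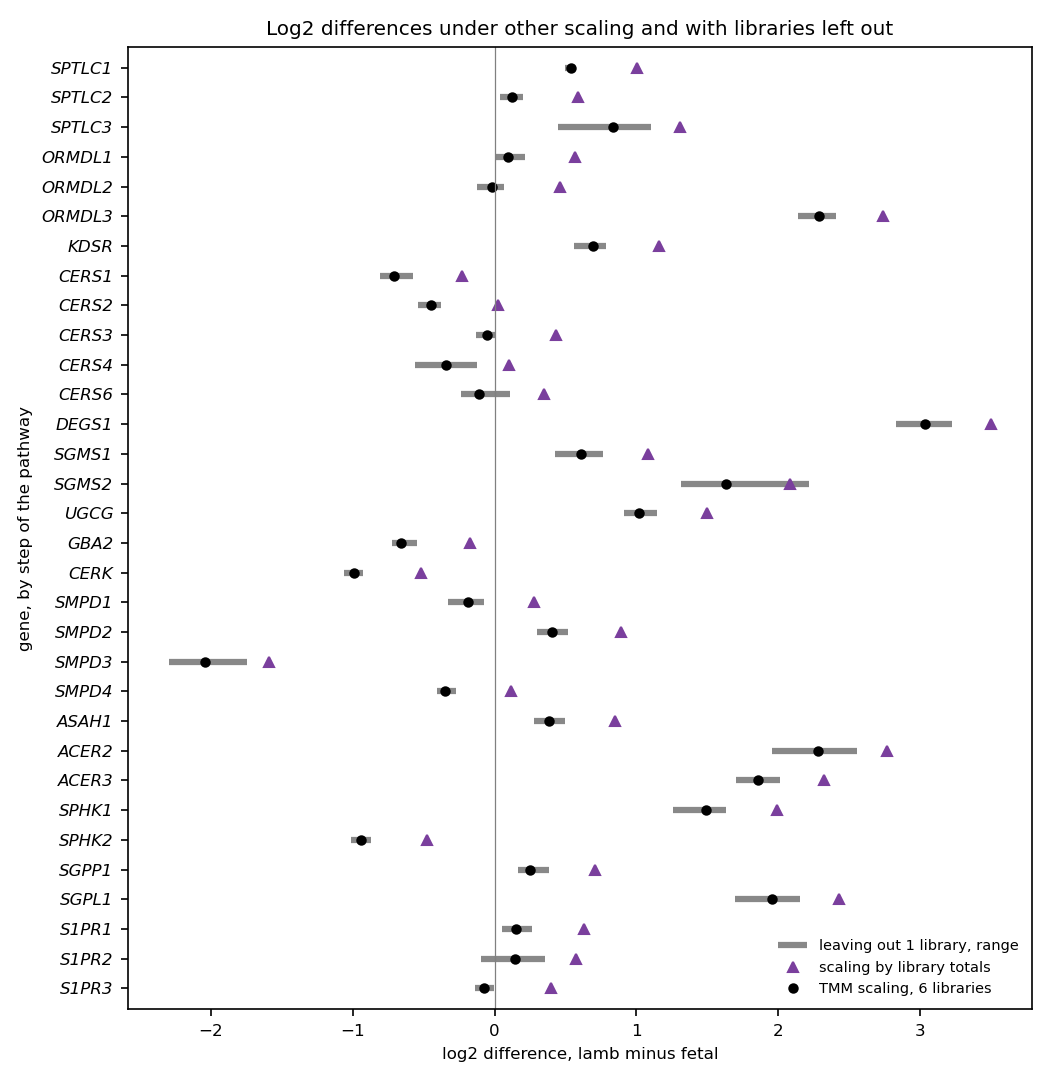
Log2 difference (lamb minus fetal) of the 32 tested genes with TMM scaling and all 6 libraries (circles), with library totals (triangles) and, as grey bars, over the 6 fits that each leave out 1 library. Triangles lie right of the circles by about the shift of all genes, 0.47, so CERS2 changes sign while ORMDL3, DEGS1, ACER2, ACER3 and SGPL1 stay above 1 and SMPD3 stays below -1.

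Across the 12 alternatives of scaling, filter, test, design and left-out library, 11 of the 18 calls held in the same direction in all. These were SPTLC1, ORMDL3, KDSR, DEGS1, UGCG, ACER2, ACER3, SPHK1 and SGPL1, which were higher in lambs, and CERK and SMPD3, which were lower. The identity of the row named DEGS1 remains uncertain. How many of all called genes held in this way was not counted, so 11 of 18 cannot be read as high or low.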

How the data were processed

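Single-end libraries of perirenal fat from 3 lambs and 3 fetuses shared a flow cell, per the labels' protocols. Reads were mapped to Ensembl gene models of Oar v3.1 in CLC Genomics Workbench v7.0, per the series' design text; how multiply mapped reads and strand were handled: not given in the sources used here. The authors deposited read counts per gene and library, which are the unit tested. The authors also deposited stage means of RPKM and, from edgeR as run in CLC, a signed fold score with its p-value before and after adjustment. A further 18 per-library columns were not used here.

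In R 4.3.3 with edgeR 4.0.16, filterByExpr kept 13624 genes, libraries were scaled by TMM, and stages were compared with the quasi-likelihood F test, with no covariate. P-values were Benjamini-Hochberg adjusted over all genes tested, with a threshold of 0.05. SE is the log2 difference over the root of F. The pipeline was tested on simulated data. A count of 0 allows up to 0.174 to 0.189 CPM in lamb and 0.157 to 0.171 CPM in fetal libraries before TMM scaling (3 counts). Intervals of count ratios are exact binomial and cover counting error only. Alternatives were other scalings, no filter beyond 1 count, DESeq2 1.42.0, the replicate number as a block, and leaving out each library. All genes of the list were described, and from the second list the 4 called genes with the largest change in each direction. Genes and lists were chosen with earlier results of these data known. Unnamed genes were placed by their neighbours in RefSeq's ARS-UI_Ramb_v3.0 table, which held all 38 names; no sequence was used here.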

Additional observations from a re-analysis of the deposited data

How the results depend on the processing

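With library totals in place of TMM, 16 genes of the list were higher and 2 lower in lambs, against 12 and 6, and of the second list 17 were higher and 2 lower, against 9 and 5. That scaling raised the median of all genes by 0.47, and 79.3% of all calls were then higher in lambs, against 49.3%. It turned ORMDL2 (0.46), CERS2 (0.026), CERS3 (0.43), CERS4 (0.10), CERS6 (0.35), SMPD1 (0.28), SMPD4 (0.12) and S1PR3 (0.40) positive, of which CERS2 alone had been called; the cause was not tested. It ended the calls of CERS1, CERS2, GBA2 and SPHK2 and added SPTLC2, SPTLC3, SMPD2 and S1PR1. DESeq2 size factors and the DESeq2 test changed no call in the list. Leaving out the mitochondrial genome added SMPD4 (adjusted p = 0.0491), and using no filter lost ASAH1 and added DEGS2.

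Leaving out 1 library gave between 9 and 12 genes higher and between 4 and 6 lower, and 4798 to 5654 calls over all genes, against 6095. Genes that had not passed changed sign in some of these fits, which spanned -0.12 to 0.068 for ORMDL2, -0.13 to 0.009 for CERS3, -0.24 to 0.11 for CERS6 and -0.096 to 0.36 for S1PR2. ORMDL2 was at 0.068 without lamb 2, 0.005 without lamb 3 and 0.049 without fetus 2. CERS3 was at 0.009 without fetus 2, CERS6 at 0.088 without lamb 1 and 0.11 without fetus 1, and S1PR2 at -0.096 without lamb 3 and -0.094 without fetus 2.

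With the replicate number as a block, 10 genes of the list were higher and 6 lower; SGMS2 (adjusted p = 0.0545) and ASAH1 (0.0694) were lost, and 5353 genes were called over the table. The numbers did not pair the animals: same-numbered libraries deviated from their stage means with correlations of 0, -0.12 and 0.05. With few counts for DEGS2, UGT8, ACER1 and SGPP2, differences in these genes were at the limit of the depth.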

Other observations

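Animals of a stage differed more in some sphingolipid genes than in others. The coefficient of variation between libraries had a median of 15.6% in lambs and 10.1% in fetuses over the 32 tested genes, and was higher in lambs for 20 of them. It was highest in lambs for SPTLC3 (44.0%) and ACER2 (41.0%), and highest in fetuses for SGMS2 (62.4%) and SMPD3 (35.8%). SGPL1 varied by 1.88-fold between the lowest and highest lamb and by 1.06-fold between fetuses. With 3 animals per stage these spreads are imprecise, and the difference in spread was not tested. Lamb 3 had the lowest ACER2 and ACER3 and the highest SGPL1, KDSR and SPTLC3 of the lambs; these genes were picked after their values were seen.

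Of the second list, SPTSSB, a small subunit of serine palmitoyltransferase, was below the filter, with 0, 0 and 2 counts in lambs, against 25, 13 and 10 in fetuses, so all fetuses lay above all lambs. COL4A3BP, the ceramide transfer protein also called CERT, rose 1.57-fold, with 277, 185 and 248 CPM in lambs, against 142, 171 and 139 CPM in fetuses (log2 difference 0.65 ± 0.18, adjusted p = 0.0192 from edgeR). Both were picked after their values were seen.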
